A study of Homo sapiens with 8 samples.

Results

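The activity of CEBPB-bound genomic sites as reporter elements was measured in K562 cells, an established human leukaemia line. The measurement was taken from 4 of the 8 libraries of the series, a DNA and an RNA library from each of 2 independent transfections. All cells received the same pool of plasmids with FUGENE reagent, and no other treatment, genotype or time point separates the libraries. The pool held 1730 bound sites and 1365 scrambled sequences, which carry the name of the site they belong to, each on 4 barcodes. Of these, 1286 sites and 1046 scrambles had at least 3 barcodes with 10 or more reads in every DNA library and were tested. The tested sites fall into 6 classes, read here after the title of the series: bound in HepG2 (a liver carcinoma line), in K562, or shared by both, each with RNA polymerase II (Pol2) or without it (NOPol2). The table does not define these classes. An element on a transfected plasmid lies outside its chromosome, so the class describes the site in the genome and the reading describes the fragment in the reporter.

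CEBPB, the CCAAT/enhancer-binding protein beta, is a basic leucine zipper factor that binds DNA as a dimer and takes part in liver, fat and myeloid gene programmes. Many genomic sites bound by such a factor show little activity when tested alone, and RNA polymerase II found away from promoters is a known mark of active enhancers. In CRE-seq each element drives a luciferase reporter whose 3′ UTR carries a short barcode, so the barcode's RNA reads over its DNA reads give the element's output per plasmid copy.

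The barcodes are what the sequencer counted, and those of the 3 most active sites and of their scrambles follow as the table writes them. They are shown because the agreement or spread between them is the within-element check on each activity value. The sites were picked with at least 3 barcodes above a log2 RNA/DNA of 0.53, which 112 of the 145 sites called active below had. Agreement between the barcodes of these sites thus follows in part from that choice and does not stand for active sites in general. All letters are lower case, since no base in a barcode is singled out.
chr16:22308680 barcode 1: aggatgaac
chr16:22308680 barcode 2: agtggcgcc
chr16:22308680 barcode 3: cacagaatt
chr16:22308680 barcode 4: tacactgct
chr16:22308680 scramble barcode 1: aagttgact
chr16:22308680 scramble barcode 2: acggctctc
chr16:22308680 scramble barcode 3: ttagcgctt
chr16:22308680 scramble barcode 4: ttccgcggt
chr16:66550768 barcode 1: ccgctacgt
chr16:66550768 barcode 2: gccttctga
chr16:66550768 barcode 3: tcggttgaa
chr16:66550768 barcode 4: tgctcgaaa
chr16:66550768 scramble barcode 1: caatccaga
chr16:66550768 scramble barcode 2: cgcctcgtg
chr16:66550768 scramble barcode 3: cttgttctt
chr2:72110231 barcode 1: cagatgagg
chr2:72110231 barcode 2: ctgctgttg
chr2:72110231 barcode 3: tctcagtgt
chr2:72110231 barcode 4: tgcggaatc
chr2:72110231 scramble barcode 1: aaggagaga
chr2:72110231 scramble barcode 2: ccattctaa
chr2:72110231 scramble barcode 3: gcactgacg
chr2:72110231 scramble barcode 4: gctgctaaa

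Averaged over both transfections, the 4 barcodes of chr16:22308680 gave log2 RNA/DNA values of 3.58, 3.60, 3.50 and 3.72 in the order printed. Those of its scramble gave values between 1.71 and 2.15. For chr16:66550768 the values were 2.91, 2.99, 3.07 and 2.99, and its scramble's 3 tested barcodes gave -0.08, 0.13 and -0.16. Different barcodes on the same element thus lay within 0.44 on the log2 scale in each of these 4 cases. The barcodes of chr2:72110231 gave 2.90, 2.61, 2.96 and 3.05, and those of its scramble 0.47, 0.23, 0.18 and 0.13. The libraries were scaled on the scrambles alone, so 0 on this scale stands for a typical scrambled sequence.

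Both libraries of transfection 2 held more barcodes at 0 reads than those of transfection 1. Over all 12380 barcodes the counts at 0 were 616 in DNA 2 against 0 in DNA 1, and 1204 in RNA 2 against 15 in RNA 1. The 616 had a median of 17 and at most 89 reads in DNA 1. Tested barcodes have 10 or more reads in every DNA library, so among them only the RNA libraries can show this. Library totals were close, from 9965393 to 10136366 reads. Among the 8868 tested barcodes, 453 (5.11%) had at most 3 reads in the RNA of transfection 2, against 23 (0.259%) in the RNA of transfection 1. Nearly all of these barcodes had little DNA: of the 848 barcodes with 10 to 100 DNA reads 363 (42.8%) were at 3 reads or fewer in the second RNA library, and of the 3801 with 1000 or more none was. Summed over barcodes, the SD of the difference between transfections was 1.05 for the 490 elements under 1000 DNA reads, 0.33 for the 542 with 2000 to 4000, and 0.17 for the 372 with 8000 or more. The Pearson r between transfections rose over the same groups from 0.24 to 0.67 and 0.93, a description across elements that share libraries and not a test. Activity values of thinly represented elements therefore carry several times the error of well represented ones. The part of the libraries of transfection 2 in any single low value was not tested.

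**Figure D1:**
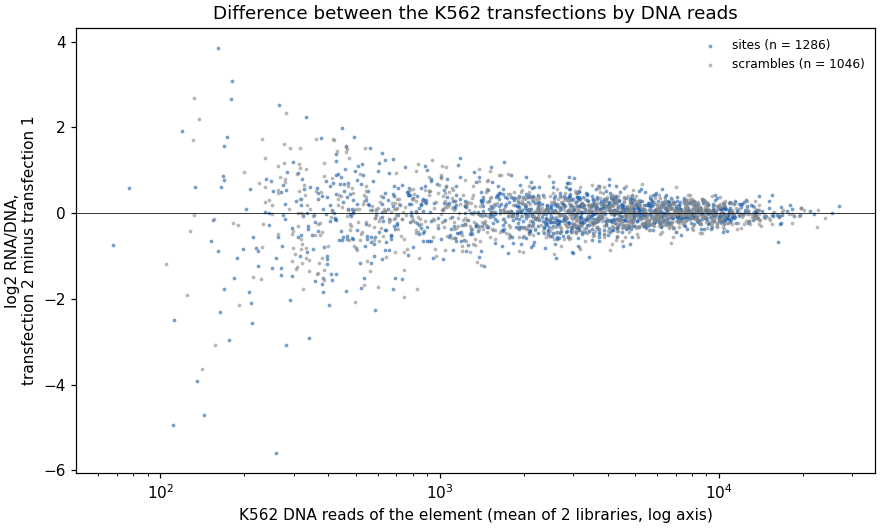
Difference in log2 RNA/DNA between the K562 transfections (transfection 2 minus 1, y axis) against the element's mean DNA reads (x axis, log scale), 1 point per tested element, sites in blue and scrambles in grey. The points narrow from left to right: the SD was 1.05 under 1000 DNA reads and 0.17 at 8000 or more.

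A minority of CEBPB-bound sites drove the reporter in K562. An element was called active at an adjusted p under 0.05 in edgeR's quasi-likelihood test of RNA against DNA, with a log2 RNA/DNA above that of 95% of tested scrambles (0.53). By this rule 145 of 1286 sites (11.3%) and 21 of 1046 scrambles (2.01%) were active, where 7.12% of all 2332 tested elements were called. The percentile was taken from these scrambles and left 53 of them above it, so the rule caps their share. By the adjusted p alone, with a log2 above 0, 177 sites and 32 scrambles passed. Active sites had a median fitted value of 1.01 (2.02-fold), and 77 had a value over 1. Among active scrambles the median was 0.79, and 6 were over 1. The active sites took 8.01% and 8.10% of the DNA reads of transfections 1 and 2, and 17.3% and 17.7% of the RNA reads. With the 99th percentile of scrambles the counts were 88 and 7, and with limma on the ratios of the transfections 24 and 3. Leaving out DNA 1 gave 104 sites and 12 scrambles, and leaving out RNA 1 or RNA 2 gave 156 or 166 sites and 53 or 48 scrambles.

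The shift of the sites was largest in the high values and smaller at the median. Over all tested sites the mean log2 RNA/DNA was 0.14 in transfection 1 and 0.11 in transfection 2, against -0.00 and -0.02 for scrambles. The 90th percentile of sites exceeded that of scrambles by 0.31, while the medians differed by 0.08. In both transfections 66 sites (5.13%) and 6 scrambles (0.574%) were above 1, and 15 sites but no scramble were above 2. The last count rests on values, without a test, and the highest scramble reached 1.95.

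The call followed the DNA reads as well as the value. In all 197 sites exceeded the scrambles' 95th percentile, and 52 of these did not pass the test. Those 52 had a median of 561 DNA reads, against 4936 for active sites. Of the 266 sites under 1000 DNA reads 10 (3.76%) were active, and of the 199 sites with 8000 or more 37 (18.6%). Scrambles in the same groups were active in 1 of 224 (0.446%) and 5 of 173 cases (2.89%). Just inside the rule the lowest active site stood at a fitted 0.53, and 32 further sites passed the adjusted p with a value above 0 but under the percentile. With at least 400 DNA reads required of every barcode, an alternative added after seeing the data, 135 of 785 sites and 22 of 635 scrambles were active.

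**Figure D2:**
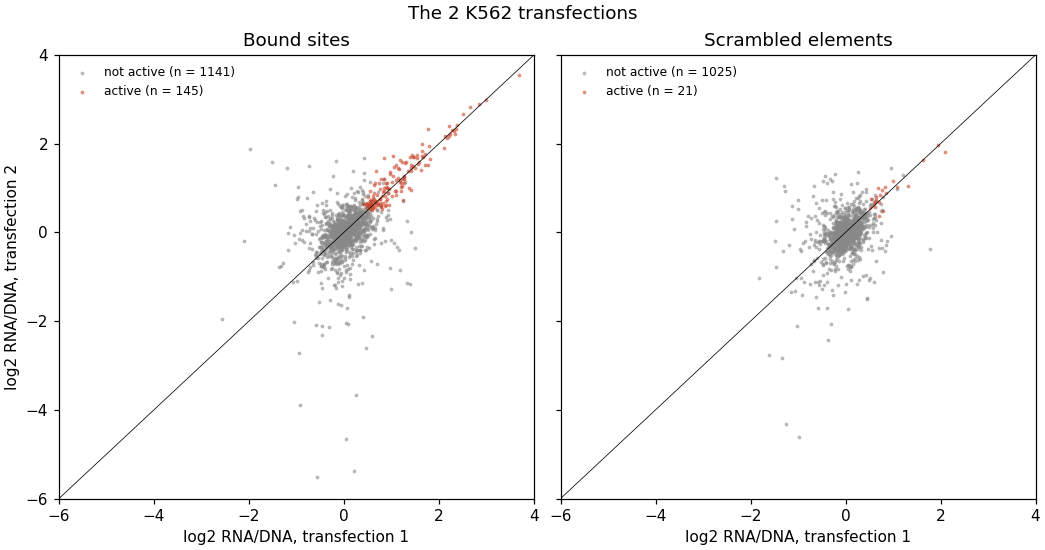
Log2 RNA/DNA of each tested element in transfection 1 (x axis) and transfection 2 (y axis), bound sites left and scrambles right, with active elements in red and the diagonal drawn. Active sites (n = 145) lie along the diagonal up to 3.69 and 3.54, and the tail below it holds elements with few reads in the second RNA library. The test behind the call uses the spread between replicate libraries, so the place of active sites near the diagonal follows in part from it.

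The active share was higher with RNA polymerase II than without it for shared and K562-bound sites, and slightly so for HepG2-bound sites, a difference in shares that was not tested. Among shared sites 46 of 150 (30.7%) were active with polymerase and 11 of 116 (9.48%) without. Of the K562-bound sites 38 of 184 (20.7%) were active with polymerase and 6 of 161 (3.73%) without. HepG2-bound sites were active in 27 of 377 cases (7.16%) with it and 17 of 298 (5.70%) without. Scrambles of the same classes gave 4 of 102 (3.92%) and 0 of 88 for shared, 0 of 165 and 5 of 137 (3.65%) for K562-bound, and 7 of 296 and 5 of 258 for HepG2-bound sites, polymerase first. The counts of 0 are by edgeR's test after adjustment: at an unadjusted p under 0.05 they were 2 for shared scrambles without polymerase and 3 for K562-bound scrambles with it, and DESeq2 called 0 and 1. For K562-bound sites without polymerase, the active share (3.73%) thus lay at that of their scrambles (3.65%) in this fit. With at least 400 DNA reads required of every barcode, 8 of 74 such sites (10.8%) were active. At that minimum 22 of 635 scrambles of all classes were. Leaving out either RNA library turned the order of the HepG2-bound classes: 6.10% were active with polymerase and 8.72% without it when RNA 1 was left out, and 7.96% and 9.06% when RNA 2 was. The count of K562-bound sites without polymerase also moved with the method. It was 6 with DESeq2 and 0 with limma on the ratios of the transfections, where 13 passed at an unadjusted p under 0.05.

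The means were also highest for shared and K562-bound sites with polymerase. Sites exceeded the scrambles of their class by 0.46 ± 0.08 (SD, n = 2 transfections) for shared sites with polymerase, with 0.40 in transfection 1 and 0.51 in transfection 2. K562-bound sites with polymerase followed at 0.30 ± 0.06 (SD, n = 2), from 0.34 and 0.26. Both classes were above the other 4 in each transfection. HepG2-bound sites with polymerase were higher by 0.10 ± 0.01 (SD, n = 2), and shared sites without polymerase by 0.12 ± 0.08 (SD, n = 2), where the transfections gave 0.17 and 0.06. The K562-bound and HepG2-bound sites without polymerase stood at 0.03 ± 0.02 and -0.01 ± 0.01 (SD, n = 2), and the direction of these differences changed with the processing: the first was -0.01 without each element's highest barcode, and the second 0.05 at a minimum of 400 DNA reads per barcode. With 2 transfections no exact permutation test can reach 0.05, so these class differences carry no p.

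With polymerase minus without, the site means differed in the same direction in both transfections for each binding group. The difference was 0.30 and 0.49 for shared sites, 0.23 and 0.23 for K562-bound sites, and 0.09 and 0.10 for HepG2-bound sites. The scrambles of these classes differed by 0.07 and 0.03, by -0.07 and -0.01, and by -0.03 and -0.01. Sites with polymerase were thus set higher than their counterparts by more than the scrambles differed, although depth moved along with the classes. The median DNA reads were 4366 and 3022 for shared sites, 3094 and 2140 for K562-bound sites and 3726 and 2932 for HepG2-bound sites, with polymerase first. Depth moved in the same direction for their scrambles, with medians of 4792 and 2196, 3070 and 1995, and 3990.8 and 3302.5 in the same order. With at least 400 DNA reads per barcode, 37.0% of shared sites were active with polymerase and 15.5% without. The shares were 25.4% and 10.8% for K562-bound sites, and nearly equal for HepG2-bound sites at 11.28% and 11.18%. The part of depth in the active shares was not tested.

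**Figure D3:**
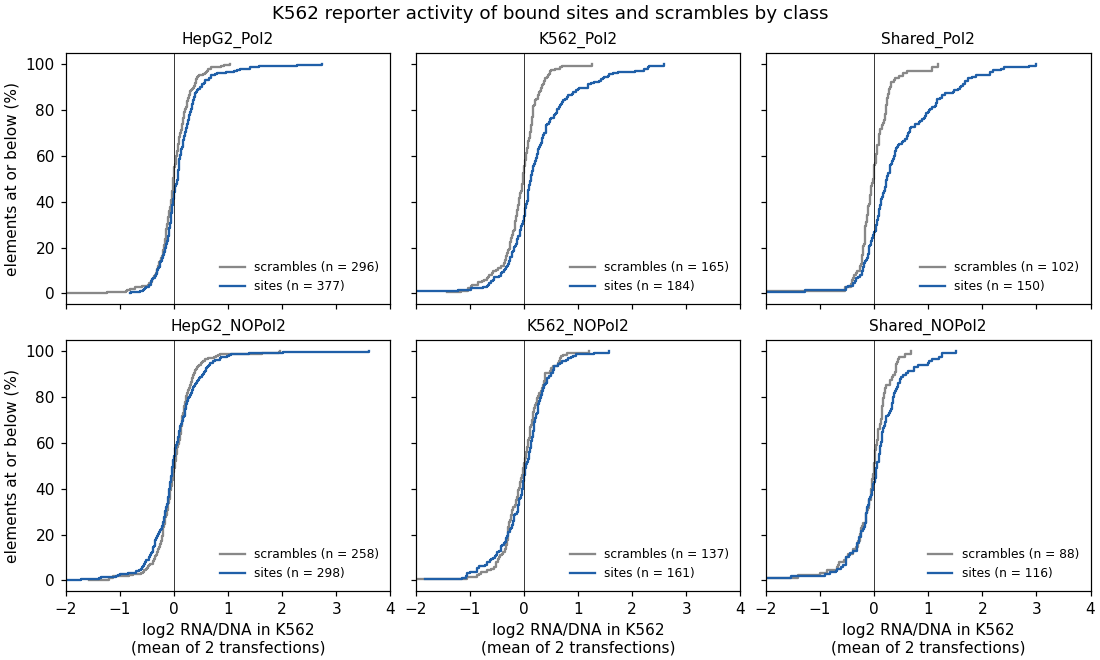
Cumulative share of elements (y axis, percent) at or below each log2 RNA/DNA in K562 (x axis, mean of 2 transfections), bound sites in blue and scrambles in grey, with a panel per class. The lowest values lie left of the drawn axis. The curves part in the upper range for shared and K562-bound sites with polymerase, whose 90th percentiles exceeded those of their scrambles by 1.30 and 0.81, and nearly coincide for K562-bound sites without polymerase (0.11).

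For shared and K562-bound sites with polymerase, the excess over scrambles was largest in the high values. The 90th percentile of sites exceeded that of scrambles by 1.30 for shared and 0.81 for K562-bound sites with polymerase. In the other 4 classes the excess ranged from 0.11 to 0.21. The medians differed by only 0.25 and 0.15 in the 2 leading classes, and by -0.04 to 0.08 elsewhere. Of the 66 sites above 1 in both transfections, 26 were shared and 18 K562-bound sites with polymerase, 12 were HepG2-bound with polymerase, and 10 came from the 3 classes without it. Shared sites with polymerase made up 31.7% of all active sites and K562-bound sites with polymerase 26.2%.

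**Figure D4:**
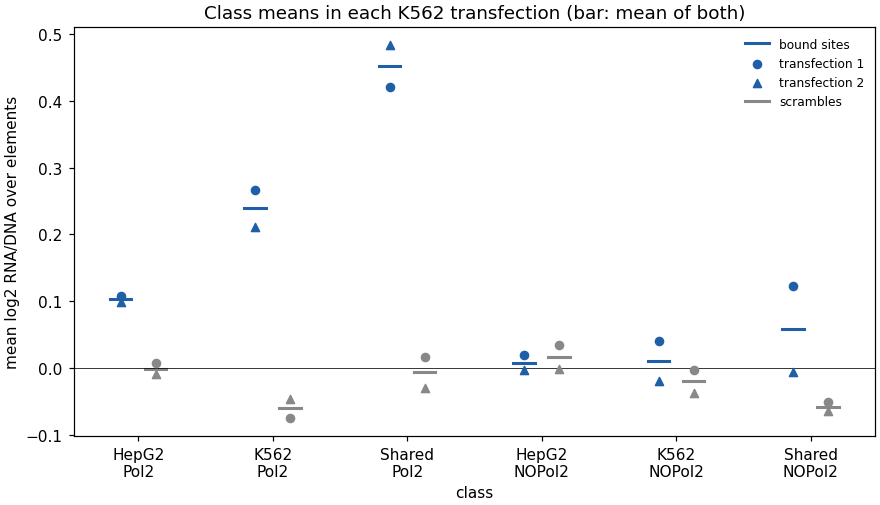
Mean log2 RNA/DNA over the elements of each class (y axis) in transfection 1 (circles) and transfection 2 (triangles), sites in blue and scrambles in grey, with a bar at the mean of both. Shared sites with polymerase stand at 0.42 and 0.48 and K562-bound sites with polymerase at 0.27 and 0.21, while all scramble means lie between -0.07 and 0.03.

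The most active sites repeated closely between transfections. Positions are given as the table writes them, the submitters' processing notes name hg19, and the sites were not assigned to genes here. The highest, chr16:22308680, is a HepG2-bound site without polymerase. It had 6276 and 6375 DNA reads and 68526 and 62234 RNA reads, for log2 ratios of 3.69 and 3.54, fitted at 12.2-fold (SE 0.06 in log2; edgeR adjusted p = 6.20e-06). It was the sole site of its class above 2 in both transfections, and its own scramble was active too.

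Of the next 9 sites, 4 were shared and 4 K562-bound sites with polymerase. The shared site chr16:66550768 had 10001 and 10825 DNA reads, 67558 and 71530 RNA reads, and a log2 RNA/DNA of 2.996 and 2.97. The shared site chr2:72110231 had 7301 and 7222 DNA reads, 44588 and 45030 RNA reads, and 2.85 and 2.89. These sites were 7.92-fold and 7.32-fold above the typical scramble in the fit. The HepG2-bound site with polymerase chr16:3156472 rested on fewer reads, 1281 and 1189 of DNA and 6852 and 7075 of RNA, at 2.66 and 2.82. In these 3 sites the transfections differed by at most 0.16.

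The K562-bound site with the highest value was chr10:24858332, with 6520 and 6723 DNA reads and 31395 and 35832 RNA reads, at 2.51 and 2.66 (6.02-fold). Below it came the shared sites chr5:5351641 at 2.39 and 2.43 and chr20:22392623 at 2.37 and 2.33. Neighbours in this lower part of the order lay closer together than the transfections of some of them, so their ranks are not separated. The last 3 were K562-bound sites with polymerase: chr10:17038369 at 2.21 and 2.41, chr21:23563028 at 2.28 and 2.32, and chr5:43075624 at 2.31 and 2.28, from 4.90-fold to 4.99-fold. Among them chr10:17038369 is the weakest in support, with 491 and 522 DNA reads and a barcode at -0.00 beside 3 barcodes between 2.13 and 2.71. Adjusted p in edgeR for the 10 sites ranged from 6.20e-06 to 8.96e-04, and all 10 kept the call under each alternative that tested them.

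The remaining classes peaked lower. The highest K562-bound site without polymerase, chr5:19019054, had 1928 and 1763 DNA reads and 4386 and 4933 RNA reads, at 1.43 and 1.73 (2.99-fold; edgeR adjusted p = 0.0011). The highest shared site without polymerase, chr21:46388115, had 5897 and 5776 DNA reads and 15327 and 12857 RNA reads, at 1.62 and 1.41 (2.86-fold; edgeR adjusted p = 5.85e-04). In both sites all 4 barcodes exceeded the 95th percentile of scrambles. Their calls were lost only with limma on the paired ratios, at limma adjusted p = 0.0587 and 0.0537.

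**Figure D5:**
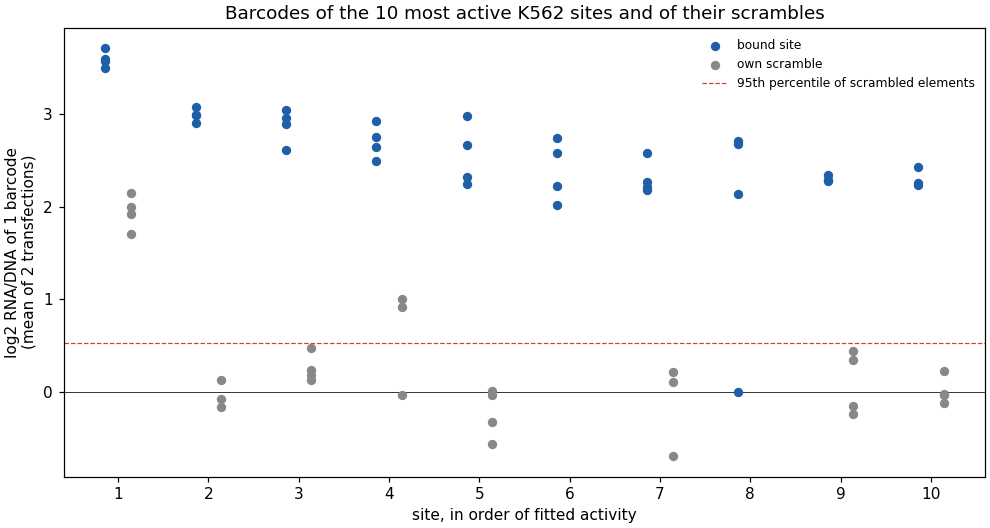
Log2 RNA/DNA of single barcodes (y axis, mean of 2 transfections) of the 10 most active sites in order of fitted activity (x axis), sites in blue and their own tested scrambles in grey, with the scrambles' 95th percentile (0.53) dashed. All site barcodes lie above the dashed line except 1 of site 8, chr10:17038369, and the scramble of site 1, chr16:22308680, lies above it with all 4 barcodes. The sites were chosen with at least 3 barcodes above this line, so their place above it follows largely from that choice.

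Barcodes agreed for most active sites, not for all. In 79 of the 145 (54.5%) every tested barcode exceeded the scrambles' 95th percentile, in 112 at least 3 did, in 25 exactly 2 and in 8 exactly 1. Of the 21 active scrambles 8 (38.1%) had every barcode above it. The widest range belonged to chr2:169986622, a K562-bound site with polymerase, whose barcodes stood at 0.35, -0.35, 3.99 and -0.75. Its barcode at 3.99 had 117 and 77 DNA reads and 1523 and 1081 RNA reads. Without that barcode the site's log2 RNA/DNA was 0.24 (edgeR adjusted p = 0.568), so its call rests on that barcode.

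At chr14:91891886, also K562-bound with polymerase, the 3 barcodes stood at 0.72, 2.09 and -1.72, and without the highest the value was 0.71 (edgeR adjusted p = 0.29). The K562-bound site with polymerase chr1:32599163 showed the reverse case. Its 3 well represented barcodes stood at 0.66, 0.78 and 0.72, and the fourth at -3.21 on 86 and 78 DNA reads, with 29 and 1 RNA reads. Since reads are summed, that barcode hardly entered the site's values of 0.76 and 0.67 (1.64-fold; edgeR adjusted p = 0.0016).

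Setting each site against its own scramble used 901 pairs in which both were tested. By limma on the 2 per-transfection differences, 81 sites (8.99% of the pairs) were higher than their scramble and 16 (1.78%) lower, at an adjusted p under 0.05. The site was higher in both transfections in 387 pairs (43.0%) and lower in both in 227 (25.2%). The share of pairs with the site higher in both was 58.2% for shared and 58.3% for K562-bound sites with polymerase. It was 41.9% for HepG2-bound sites with polymerase, and 41.3% for shared and 38.4% for K562-bound sites without it. HepG2-bound sites without polymerase were higher in both in 31.5% and lower in both in 36.5% of pairs. Pairs called higher numbered 24 of 98 for shared, 20 of 127 for K562-bound and 13 of 267 for HepG2-bound sites with polymerase. Without polymerase they numbered 4 of 75 for shared, 8 of 112 for K562-bound and 12 of 222 for HepG2-bound sites. All 81 calls were lost with no minimum count, without each element's highest barcode, or with the median over barcodes in place of the sum, where 122, 93 and 113 pairs had an unadjusted limma p under 0.05 with the site higher.

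Active sites were chosen for standing above 95% of all scrambles, so that most also stood above their own scramble follows largely from that choice and supports nothing. Of 104 active sites with a tested scramble 98 were higher in both transfections, and 61 of the 104 were called. At chr16:66550768 the difference was 2.93 and 3.05 (limma adjusted p = 7.03e-04), with the scramble at 0.07 and -0.07. At chr10:24858332 it was 2.57 and 2.96, and at chr2:72110231 it was 2.67 and 2.64. The 3 scrambles had between 3710 and 13641 reads in each library, so these differences rest on well measured elements on both sides.

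The largest fitted differences did not. At chr11:47026398, a shared site with polymerase, the site exceeded its scramble by 1.69 and 5.66 (limma adjusted p = 0.0224), but the scramble had 174 and 140 DNA reads and 61 and 5 RNA reads. At chr3:186238854, HepG2-bound with polymerase, the difference was 1.75 and 5.06 (limma adjusted p = 0.0157), with 85 and 2 RNA reads of the scramble. Neither site was active, at 0.43 and 1.33 and at 0.78 and 0.46. In both pairs the scramble had nearly no RNA reads in transfection 2, where the difference was the larger.

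In the other direction, chr16:87561818, HepG2-bound without polymerase, was 1.68 and 1.79 below its scramble in transfections 1 and 2 (log2 differences -1.68 and -1.79; limma adjusted p = 0.0026). The site itself was at -0.04 and -0.16, and its scramble was active. At chr2:38875336, shared without polymerase, the differences were -0.93 and -1.92 (limma adjusted p = 0.0163), with the site at -1.06 and -2.03 and the scramble at -0.12 and -0.11. At chr12:120619850, HepG2-bound without polymerase, they were -0.96 and -1.87 (limma adjusted p = 0.0151), with the site at -1.07 and -1.12. The spread there came from the scramble, which stood at -0.11 in transfection 1 and 0.75 in transfection 2.

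Some scrambled sequences drove the reporter themselves. The scramble of chr16:22308680 had 15649 and 15783 DNA reads and 50810 and 51865 RNA reads, at 1.94 and 1.97 (3.87-fold; edgeR adjusted p = 1.71e-05). That of chr2:8819195 had 6172 and 6478 DNA reads and 22312 and 19037 RNA reads, at 2.09 and 1.81. In both all 4 barcodes lay above the scrambles' 95th percentile, from 1.71 to 2.15 and from 1.06 to 2.34. The scramble of chr16:87561818 reached 1.64 and 1.63 on 3 of 4 barcodes, with the fourth at -0.39. The calls of these 3 scrambles held under each alternative that tested them, and all 3 belong to HepG2-bound sites without polymerase.

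In 5 pairs site and scramble were both active. At chr16:22308680 the site exceeded its scramble by 1.75 and 1.57 (limma adjusted p = 0.0029). At chr2:8819195 the site was lower, by log2 differences of -1.58 and -1.21 (limma adjusted p = 0.0076), with the site at 0.55 and the scramble at 1.95 on average. The 3 others, chr16:46929966, chr2:171600872 and chr2:20876185, had mean differences of -0.10, -0.30 and -0.13, none of which passed the test (limma adjusted p from 0.437 to 0.803). Across all 901 pairs the activity of a site and that of its scramble had a Pearson r of 0.07, given as a description.

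Activity below the scrambles was rare. By the mirror rule, with the 5th percentile of scrambles (-0.51), 5 of 1286 sites and 3 of 1046 scrambles (0.287%) were repressed, where 0.343% of all elements were called. The lowest was chr9:131067083, K562-bound with polymerase, with 1628 and 1537 DNA reads and 872 and 809 RNA reads, at -0.66 and -0.67 (edgeR adjusted p = 0.0408). The HepG2-bound sites without polymerase chr12:107162987 and chrX:2683274 stood at -0.52 and -0.69 and at -0.59 and -0.49. The shared sites chr4:185305231 (with polymerase) and chr4:90033500 (without) stood at -0.46 and -0.58 and at -0.59 and -0.43. Adjusted p in edgeR for the 5 ranged from 0.0159 to 0.0457.

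These calls depended on the processing. With the replicate number as a block, 8 sites were repressed and 2 of them were among the 5. The calls of chrX:2683274, chr4:185305231 and chr4:90033500 were lost to the percentile of the rule alone. With the block the 5th percentile of scrambles was -0.55, and these sites stood at -0.54, -0.52 and -0.51 with edgeR adjusted p of 0.0219, 9.47e-04 and 0.0474. Each of the 5 sites lost its call under at least 7 of the alternatives run on it. Lower values existed, since 3 sites and 8 scrambles were below -1 in both transfections, but they did not pass the test. At chr12:120619850, on 725 and 699 DNA reads, the adjusted p in edgeR was 0.0634.

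The sites that differed most between transfections had few reads. At chrX:87695020, HepG2-bound without polymerase, 280 and 240 DNA reads stood against 276 and 4 RNA reads, for a log2 RNA/DNA of 0.22 and -5.37. At chr20:56119942, shared without polymerase, 171 and 116 DNA reads stood against 150 and 3 RNA reads, for 0.05 and -4.65. At chr8:116439885, K562-bound with polymerase, 121 and 102 DNA reads stood against 69 and 1 RNA reads, for -0.56 and -5.50. In all 3 the low value was in transfection 2, the library with the most barcodes near 0, and none was called. Fits without that RNA library turned chrX:87695020 to 0.32 and chr20:56119942 to 0.30.

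The sites active in K562 were not all higher there than in HepG2. In a fit over all 8 libraries, where 16.6% of the 2332 elements differed between the lines in either direction, 40 of the 145 sites active in K562 were higher in K562, 53 were higher in HepG2 and 52 did not differ at the threshold. Of the 38 K562-bound sites with polymerase 20 were higher in K562 and 7 in HepG2. Among the 46 shared sites with polymerase 10 were higher in K562 and 26 in HepG2. The median log2 RNA/DNA of the former was 1.10 in K562 and 0.60 in HepG2, and that of the latter 1.21 and 1.98. Having been chosen for their K562 activity, these sites describe that choice and are no test of the classes.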

How the data were processed

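Barcode reads of the 4 K562 libraries were analysed. Per the file headers, the deposited values are raw counts of reads for every barcode, cell line, molecule and replicate, and no normalization is named. The submitters' processing notes name cutadapt (version not given) and hg19 and leave their roles unstated. Counter and filters were not given in the sources used here. Element sequences were not used here. PCR reads without molecular identifiers are not independent molecules.

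A barcode was kept at 10 or more reads in all DNA libraries of both cell lines, and elements with at least 3 of them were tested (763 of 3095 were not). Counts were summed over barcodes and scaled by TMM on scrambles (factors 1.08, 1.08, 0.931 and 0.920 for DNA 1, DNA 2, RNA 1 and RNA 2). RNA was tested against DNA with edgeR 4.0.16 (R 4.3.3) on the 4 libraries without a block, Benjamini-Hochberg over 2332 elements. Per-transfection log2 ratios used a pseudocount of 1. Pairs of site and scramble were tested with limma 3.58.1 over 901 pairs. Libraries of a transfection share its number and lane per the labels' protocols, and the ratio of RNA 1 to RNA 2 correlated with that of DNA 1 to DNA 2 over elements (Pearson r 0.24). DESeq2 1.42.0 was an alternative. The procedure was also run on simulated data. The simulated pairs had the same spread at every depth, unlike the data, so that run cannot show how pair calls behave at low reads.

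Named elements are the 10 most active sites with at least 3 barcodes above the scrambles' 95th percentile, the highest of each class, the 5 lowest repressed sites, the 3 most active scrambles, the 5 largest and 3 most negative called pair differences, the 3 active sites with the widest barcode range and the 3 sites differing most between transfections. The 5 pairs with both members active were chosen after their values were seen. The members, classes and rules were chosen with earlier results of these data known.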

Additional observations from a re-analysis of the deposited data

Results flagged for a closer look

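Of the 10 most active K562 sites, 9 differed between the cell lines in the interaction of the 8-library edgeR fit (adjusted over 2332 elements), where 16.6% of all tested elements did. These 10 were picked for high K562 values, and most have many reads, so the count says nothing of sites in general. HepG2 was higher at 4 of them. The K562 minus HepG2 difference in log2 RNA/DNA was -1.48 at chr16:3156472 (SE 0.13, adjusted p = 2.98e-05), -0.613 at chr21:23563028, -0.571 at chr16:66550768 and -0.523 at chr16:22308680. K562 was higher at the 5 others. The difference was 2.73 at chr10:24858332 (SE 0.12, adjusted p = 5.04e-07), where the HepG2 value was -0.13, 1.53 at chr10:17038369, 0.991 at chr2:72110231, 0.986 at chr5:43075624 and 0.473 at chr20:22392623. Adjusted p in edgeR for the 9 ranged from 5.04e-07 to 0.0255. The K562-bound site chr21:23563028 was thus higher in HepG2, at 2.92. The tenth site, chr5:5351641, differed by 0.03 (SE 0.09, edgeR adjusted p = 0.883).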

How the results depend on the processing

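All 10 leading sites and the 3 leading scrambles kept their calls under every alternative that tested them. Counts are of active sites, active scrambles and repressed sites unless stated. Of the 145 active sites, 145 remained with the replicate block (163 in all), 144 with all 8 libraries (162) and 145 with DESeq2 (161). The block changed no other count by over 1.5 times than that of repressed sites, which was 8 with it, 16 with 8 libraries, 13 with DESeq2, 10 with limma and a variance trend, 2 with no minimum count, and 10 and 16 at 50 and 400 DNA reads per barcode. Limma on paired ratios, with 1 residual degree of freedom per element, left 24, 3 and 0 (32 unadjusted), and by class 2 and 3 HepG2-bound sites (without and with polymerase), 0 and 6 K562-bound, and 0 and 13 shared; unadjusted, the zeros were 13 and 14. The 99th percentile of scrambles left 88, 7 and 0 (3 unadjusted), and by class 6, 13, 3, 25 and 7, with shared sites with polymerase at 34. Without the highest barcode 0 sites were repressed (6 unadjusted).

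With a library left out, counts ranged from 104 (without DNA 1) to 166 (without RNA 2) for active sites, 12 to 53 (without RNA 1) for active scrambles and 0 to 58 (without RNA 1) for repressed sites. Without DNA 2 none was repressed by edgeR (4 unadjusted). By class the ranges were 9 to 27 and 18 to 30 for HepG2-bound sites without and with polymerase, 3 to 14 and 26 to 39 for K562-bound, and 8 to 12 and 39 to 48 for shared. A fit with a lone RNA library takes its spread from the DNA libraries alone.

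Pairs with the site higher numbered 135 with a variance trend (70 shared with the 81), and 0 by limma with no minimum count, by barcode medians, or leaving out the highest barcode (122, 113 and 93 unadjusted). The site minus scramble means moved as follows. With medians over elements they were -0.039 and 0.080 for HepG2-bound sites without and with polymerase, 0.15 for K562-bound and 0.25 for shared sites with it. With no minimum count they were -0.021 and 0.083 for HepG2-bound sites and 0.22 for K562-bound sites with polymerase. HepG2-bound sites without polymerase were at 0.026 and 0.046 at 50 and 400 DNA reads, -0.023 with barcode medians and -0.026 without the highest barcode. Those with polymerase were at 0.12 at 400 reads, and at 0.14 both by barcode medians and leaving out the highest barcode. K562-bound sites without polymerase were at 0.089 at 400 reads and reversed to -0.0070 without the highest barcode, where those with polymerase were at 0.36. With a library left out, chrX:87695020 ranged from -5.73 (without RNA 1) to 0.32 (without RNA 2) and chr20:56119942 from -5.27 to 0.30. The cause of these changes was not tested. The variance trends and the minimum of 400 reads were chosen after seeing the data.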
